A study of Mus musculus with 6 samples.

Results

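The genes described here encode the core histones H2A, H2B, H3 and H4, the linker histone H1 and their variants, measured in IL-2-activated CD8-TC of WT and Runx3-/- mice. A gene was taken where a probe set of the array carried its symbol alone and the symbol began with H1f, H2ac, H2bc, H2a, H2b, H3c, H3f, H4c or Macroh2a, the H2- genes of the major histocompatibility complex being left aside. The probe set with the highest mean over the 6 arrays stood for the gene. This gave 47 of the 19938 genes with a symbol of their own: 29 clustered genes, 17 variants and 1 pseudogene.

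Histones package DNA into nucleosomes, with H1 bound to the linker between them. Most of the clustered genes are replication-dependent. They are transcribed mainly in S phase, when new DNA must be wrapped, and their mRNAs end in a stem-loop in place of a poly(A) tail. Most variant histones are made outside S phase as well, carry ordinary poly(A) tails and are placed by dedicated chaperones. An activated T cell that divides draws on both supplies.

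CD8+ T cells of the spleen came from individual ICR mice labelled male and 6 weeks old, 3 WT (Runx3 +/+) and 3 Runx3-/-. All 6 cultures were activated through the T cell receptor on anti-CD3 with soluble anti-CD28 for 2 days and then grown in 100 u/ml human IL-2 for 4 days. WT cells were selected on anti-CD8 beads, whereas Runx3-/- cells were bead-selected, sorted to remove CD11c+CD8+ dendritic cells before culture and sorted again to remove CD4+CD8- T cells after it, so genotype and the added sorting cannot be told apart. Each culture gave 1 array of whole-transcript probes, called WT1 to WT3 and KO1 to KO3, with values on a log2 scale, and every difference below is KO minus WT on that scale.

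The arrays had medians of 4.15 to 4.35, and pairs of arrays correlated at 0.95 to 0.99 across genes. Of the CD8 T cell markers, 8 of 8 with a probe set reached the table median of 4.26 on some array, against 2 of 12 dendritic cell markers, 1 of 5 B cell markers, 2 of 4 NK cell markers, 3 of 4 helper T cell markers and 0 of 6 myeloid markers. Itgax, Flt3, Zbtb46, Xcr1 and Clec9a, which define dendritic cells, stayed below it on all arrays. The 2 dendritic markers that reached it were Cd74 and H2-Eb1. Cd74 read 3.49, 4.13 and 3.89 in WT and 5.74, 4.24 and 3.95 in KO (difference 0.80, adjusted p = 0.463, limma). H2-Eb1 had a difference of 0.39 (adjusted p = 0.405, limma). The B cell marker differed by -0.93 (Cd79b), and the NK cell markers by -1.56 (Klrb1c) and 0.11 (Itga2). The helper T cell markers differed by 0.95 (Cd4), 0.64 (Zbtb7b) and -0.32 (Foxp3). Their adjusted p by limma ran from 0.148 for Cd79b to 0.877 for Itga2. Runx3 itself read 8.77, 8.26 and 9.16 on the WT arrays and 8.91, 9.11 and 9.27 on the KO arrays, a difference of 0.37 (SE 0.24, adjusted p = 0.521, limma). The part of Runx3 that is disrupted is not given in the labels, so this level does not check them, and the arrays are called KO-labelled. WT1, labelled male, read 10.64 for Xist, which is transcribed from an inactivated X, against 3.31 to 3.40 on the other arrays. On the first principal component (49.6% of the variance) the WT arrays scored -12.6, -40.3 and -7.31, and the KO-labelled arrays 0.838, 42.4 and 17. KO2 and WT2 were the extremes of the 6, and the component also separated the genotype labels. The calls and medians of the histone genes are also given without KO2.

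Of the 47 histone genes, 32 reached the table median on at least 1 array and were tested: 26 clustered genes, 5 variants and the pseudogene H2bu1-ps. The other 15 stayed below it on all 6 arrays. These were the clustered H1f6, H2bc4 and H3c7 and 12 variants, among them the testis histones H1f7 and H2al2a, the oocyte linker histone H1f8, H1f10, Macroh2a2 and the single-symbol probe set of H3f3a. The labelling kit primes along the RNA, so mRNAs with and without poly(A) are both read. Probes of near-identical histone genes can bind each other's RNA, so a value given under 1 symbol may hold signal of its relatives.

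No histone gene was called between genotypes. With limma and Benjamini-Hochberg adjustment over all genes, 0 of 26 clustered genes and 0 of 5 variants had an adjusted p under 0.05, against a background of 0.629% of the 10021 genes tested. An unmoderated linear model called 0 of all genes, so its 0 for the histone genes carries no information. At an unadjusted p under 0.05 the count was 1 clustered gene, H1f2, and no variant, against 14.1% of all genes, and H1f2 was also past 1.5-fold, as were 8.3% of all genes under both limits. Under quantile or median normalization H1f2 no longer passed them. Of the clustered genes, 18 of 26 had a difference above 0, as had 48% of all genes, and their median difference was 0.10 beside -0.01 for all genes. The 5 variants had a median of -0.01. The precision was uneven: the 95% interval lay within 1.5-fold either way for 9 of 26 clustered genes and 1 of 5 variants (37.7% of all genes), and within 2-fold for 17 and 4 (76.8% of all genes). For the remaining clustered genes a change of 2-fold is inside the interval.

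**Figure D1:**
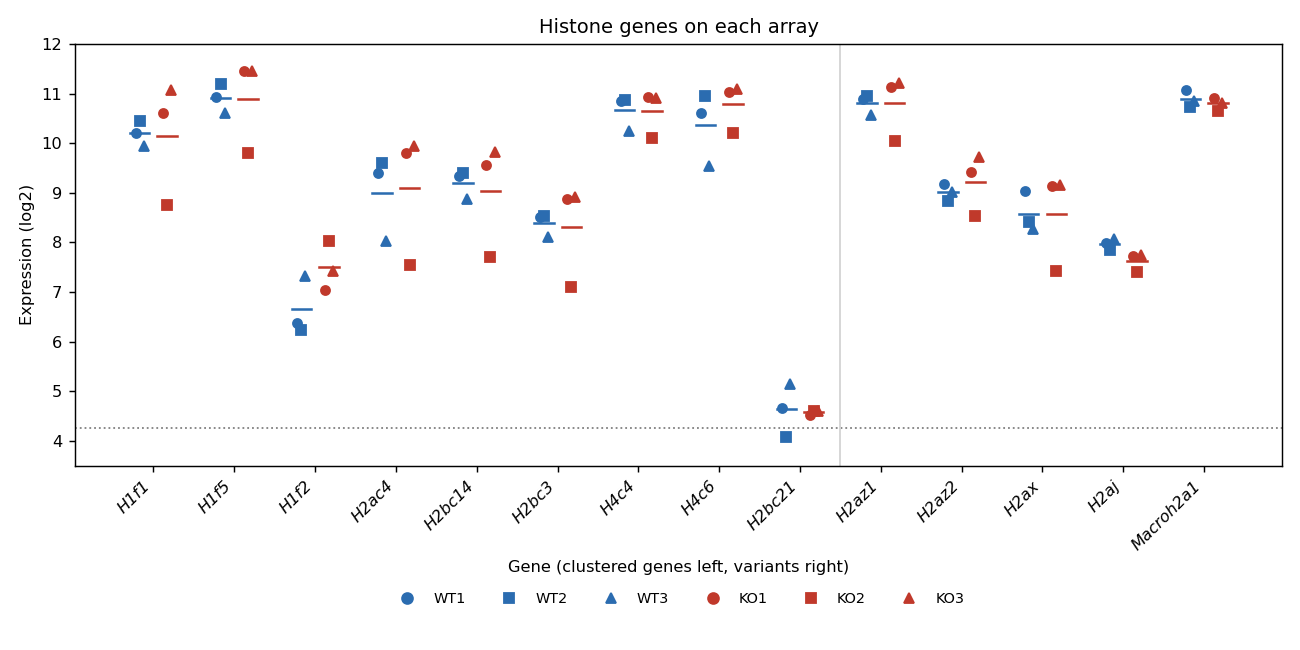
Expression on the log2 scale (vertical axis) of 9 clustered and 5 variant histone genes on each of the 3 WT (blue) and 3 KO-labelled (red) arrays, with lines at the group means and a dotted line at the table median of 4.26. KO2 (red square) is the lowest of the 6 arrays for H1f1, H1f5, H2ac4, H2bc14, H2bc3, H4c4 and all 5 variants, and the highest for H1f2.

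The linker histones did not move alike on KO2. H1f1, encoding H1.1, read 10.21, 10.45 and 9.95 on the WT arrays and 10.61, 8.76 and 11.07 on the KO-labelled arrays. KO1 and KO3 were above every WT array and KO2 was below every one, and the difference was -0.05 (SE 0.56, 95% interval -1.37 to 1.26, adjusted p = 0.978 by limma). H1f5, encoding H1.5, did the same: 10.93, 11.20 and 10.61 in WT and 11.45, 9.81 and 11.45 in KO, a difference of -0.01 (SE 0.45).

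H1f2, encoding H1.2, ran the other way. It read 6.38, 6.24 and 7.33 in WT and 7.04, 8.02 and 7.43 in KO. Here KO2 was the highest array, and WT3 lay among the KO-labelled ones, so the groups overlapped. The difference of 0.85 (SE 0.36, limma adjusted p = 0.352, and 0.13 to 0.646 over the alternatives tried) was the highest of the 26 clustered genes. Without KO2 it was 0.59 (SE 0.35, adjusted p = 0.526).

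Among the clustered H2A genes, H2ac4 had the widest spread. It read 9.39, 9.60 and 8.02 in WT and 9.80, 7.55 and 9.95 in KO, so that WT3 and KO2 both sat more than 1 unit below the other 4 arrays. Its difference was 0.10 with an interval of -1.57 to 1.77. H2ac15 read 10.27, 10.40 and 9.97 against 10.54, 9.84 and 10.61, a difference of 0.12 (SE 0.24). H2aw, which lies in the small cluster on chromosome 11, read 8.33, 8.12 and 8.20 against 8.51, 8.28 and 8.88. KO2 lay just under WT1 and the other KO-labelled arrays above all WT arrays, and the difference was 0.34 (SE 0.18, adjusted p = 0.442, limma).

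Of the clustered H2B genes, H2bc14 had the lowest difference of the 26 clustered genes. Its values were 9.34, 9.39 and 8.87 in WT and 9.56, 7.71 and 9.82 in KO, a difference of -0.17 (SE 0.53). H2bc3 ran in parallel, at 8.52, 8.53 and 8.10 against 8.87, 7.11 and 8.91, a difference of -0.09 (SE 0.48). Both were high on KO1 and KO3 and low on KO2. H2bc8 did not share the low KO2 value: it read 6.38, 6.06 and 5.79 against 6.64, 6.39 and 6.37, and its difference was 0.39 (SE 0.19, adjusted p = 0.4 by limma). H2bc21, on chromosome 3, spread among the WT arrays instead, with 4.66, 4.07 and 5.15 against 4.52, 4.59 and 4.60 in KO.

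The H4 genes H4c4 and H4c6 encode the same protein from different places in the chromosome 13 cluster. H4c4 read 10.85, 10.88 and 10.24 in WT and 10.94, 10.11 and 10.91 in KO, and its difference was 0.00 with an interval of -0.68 to 0.67. H4c6 read 10.61, 10.95 and 9.53 against 11.04, 10.21 and 11.09. Its lowest array was WT3 and not KO2, and the difference was 0.42 (SE 0.41, adjusted p = 0.662, limma). For H3 the single-symbol probe sets were few: H3c15 had a difference of 0.21 (SE 0.14) and H3c4 of 0.02 (SE 0.19).

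The variants divided by how far they followed KO2. H2az1 and H2az2 encode the H2A.Z proteins found at promoters and enhancers. H2az1 read 10.90, 10.95 and 10.57 in WT and 11.14, 10.04 and 11.21 in KO, a difference of -0.01 (SE 0.32), and a further probe set of the same gene gave -0.12 with KO2 again lowest, at 9.34. H2az2 read 9.18, 8.83 and 9.01 against 9.41, 8.53 and 9.72, a difference of 0.21 (SE 0.30). H2ax, encoding the variant that is phosphorylated beside DNA breaks, read 9.03, 8.41 and 8.26 against 9.13, 7.42 and 9.15, a difference of 0.00 (SE 0.48). In all 3 genes KO1 and KO3 were above every WT array and KO2 below every one.

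Macroh2a1, encoding a variant with a large non-histone domain that is enriched on silent chromatin, was nearly level: 11.08, 10.72 and 10.86 against 10.92, 10.64 and 10.82, with an interval of -0.46 to 0.28. H2aj, encoding H2A.J, was the 1 tested member whose groups did not overlap, at 7.98, 7.84 and 8.07 in WT and 7.72, 7.40 and 7.74 in KO. Groups did not overlap for 22.4% of all genes. Its difference was -0.34 (SE 0.15, adjusted p = 0.381, limma) and -0.23 (SE 0.14) without KO2.

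**Figure D2:**
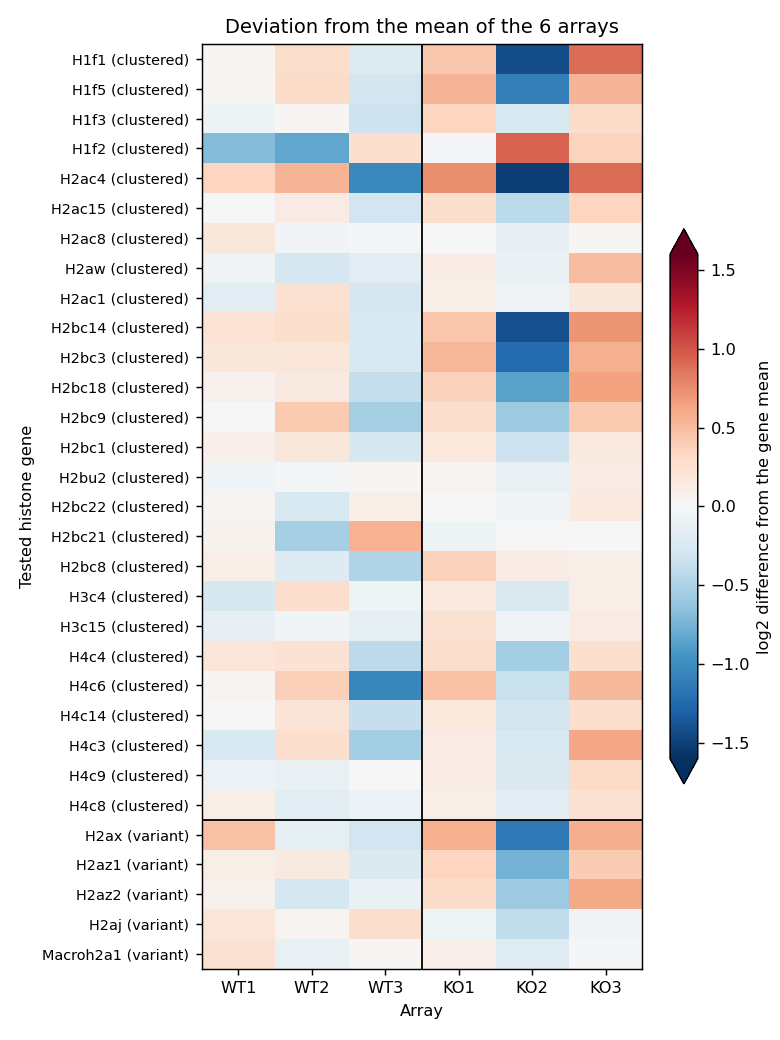
Each tested histone gene (rows, clustered above the line and variants below it) on each array (columns), as the log2 difference from that gene's mean over the 6 arrays, red above it and blue below. KO2 is blue for most genes, down to H2ac4, while H1f2 is red there, and WT3 is blue for H2ac4 and H4c6.

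Many of the histone genes, though not all, shared their lowest or highest array. KO2 was the lowest of the 6 arrays for 13 of 26 clustered genes (50%) and for 5 of 5 variants, against 34.7% of all tested genes. KO3 was the highest for 14 clustered genes (53.8%, against 19.6% of all genes), and WT3 was the lowest for 7 (26.9%, against 11.3%). H1f2 was the 1 clustered gene highest on KO2. The mean deviation of the 26 clustered genes from their own means was 0.00, 0.06 and -0.25 on WT1, WT2 and WT3 and 0.24, -0.41 and 0.36 on KO1, KO2 and KO3. The variants gave 0.21, -0.07 and -0.07, then 0.24, -0.62 and 0.30.

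KO2 minus the mean of the other 5 arrays was -1.80 for H2ac4, -1.70 for H1f1, -1.68 for H2bc14, -1.48 for H2bc3, -1.38 for H2ax and -1.32 for H1f5. It was below 0 for 24 of 26 clustered genes, the exceptions being H1f2 at 1.14 and H2bc8 at 0.15, against 59.6% of all genes. A drop of 1 unit or more was seen for 6 clustered genes (23.1%) against 6.36% of all genes. All 6 were among the 17 clustered genes with a mean of 6 or more. The 9 with a lower mean moved by -0.40 to -0.01 on KO2, and whether their lower signal bears on this was not tested.

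The cell cycle lists moved with the same array, and further. KO2 was below the mean of the other arrays for 34 of 34 S phase genes (median -1.74) and 28 of 28 G2/M genes (median -1.76), beside a median of -0.29 for the clustered histone genes, -0.70 for the variants and -0.10 for all genes. WT3 was the lowest WT array for both lists, at -0.33 for S phase and -0.39 for G2/M, and KO1 and KO3 lay between 0.46 and 0.78. The part of these lists in the histone values was not tested. In cultures read as a whole, fewer cycling cells and less histone mRNA per cell cannot be told apart.

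**Figure D3:**
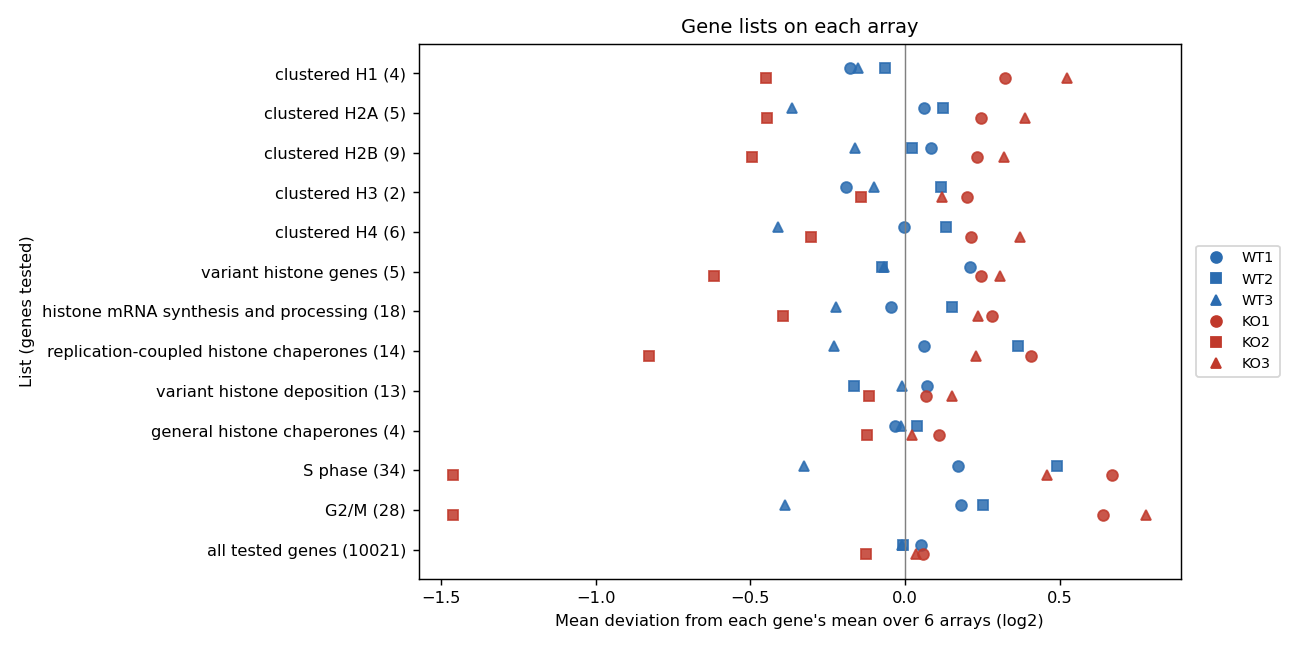
Mean deviation from each gene's mean over the 6 arrays (horizontal axis, log2) for the clustered histone families, the variants, the histone pathway lists, the S phase and G2/M lists and all tested genes, by array (blue WT, red KO-labelled). KO2 (red square) is at -1.46 for S phase and G2/M, -0.83 for the replication-coupled chaperones and -0.62 for the variants.

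Leaving out KO2 moved the clustered genes up without any call. KO2 was below the mean of the other arrays for 24 of 26 of them. It was below the mean of KO1 and KO3 for all but H1f2 and H2bc21, so most differences had to rise. The median and counts below reflect that choice of array and are no separate sign of higher expression in KO. Leaving out WT2 instead, the other extreme of the first principal component, gave a clustered median of 0.19. Without KO2 the median difference of the clustered genes became 0.37, and 24 of 26 were above 0 (53.6% of all genes were). Of these 26, 0 had an adjusted p under 0.05 (background 0.284%, limma). At an unadjusted p under 0.05 there were 6, all higher in KO, against 12.6% of all genes in either direction and 7.84% higher: H1f1, H1f3, H1f5, H2aw, H2bc3 and H2bc18. H1f1 was at 0.64 (SE 0.22, adjusted p = 0.337, limma) and was the 1 gene also past 1.5-fold, against 7.77% of all genes. The variants had a median of 0.36, with H2az2 at 0.56 (SE 0.18, adjusted p = 0.306, limma). The S phase and G2/M lists shifted in the same step, to medians of 0.47 and 0.71.

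**Figure D4:**
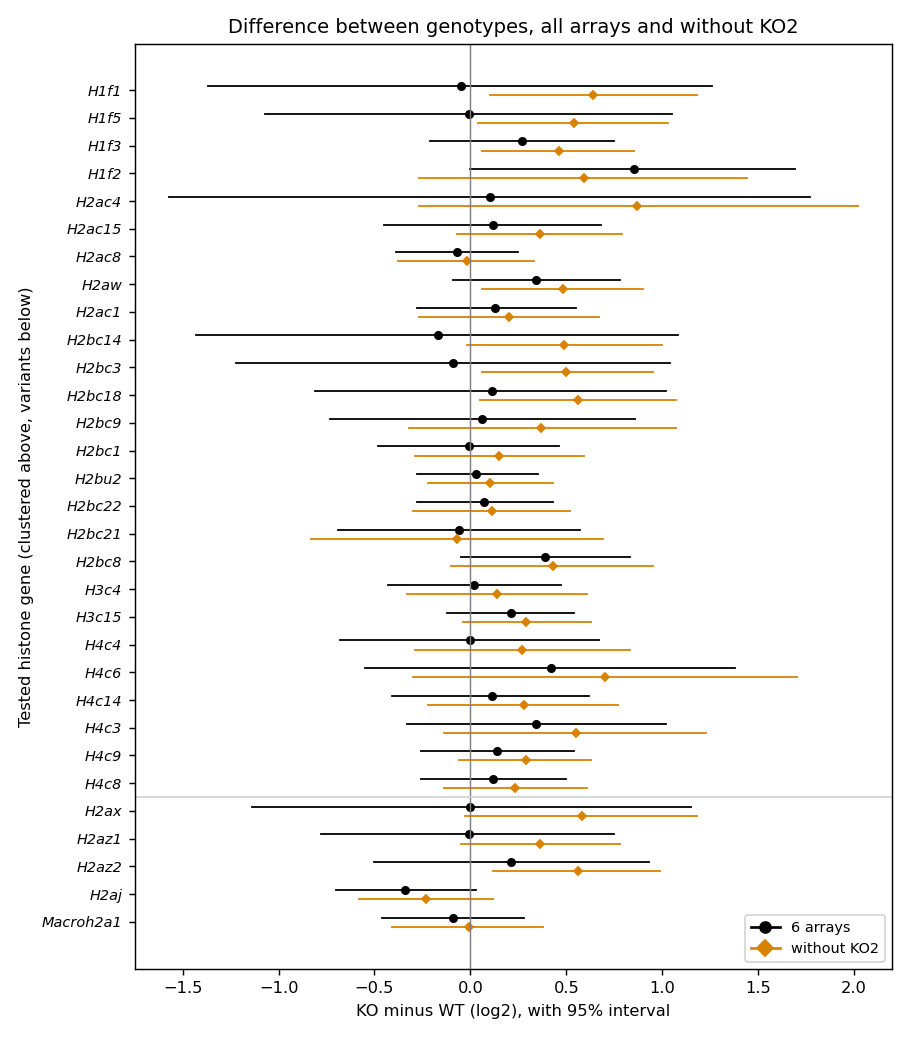
KO minus WT difference (horizontal axis, log2) with its 95% interval for each tested clustered and variant histone gene, from all 6 arrays (black circles) and without KO2 (orange diamonds). With 6 arrays the differences run from -0.34 for H2aj to 0.85 for H1f2, and without KO2 most lie to the right of their value from 6 arrays, H1f2 and H2bc21 to the left.

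In the order of the members along chromosome 13, H1f2 is followed by 3 of the genes that were low on KO2. Genes read only by shared probe sets were not placed, so other genes may lie between them. Of the 23 members placed in the chromosome 13 cluster, H1f2, H2bc3, H2ac4 and H1f1 follow one another in that order, and on KO2 the first was highest and the other 3 lowest of the 6 arrays. The 150 bases before the start of each of the 4 are shown to compare them, with H2bc14, which was also low on KO2 but lies at the far end of the cluster, and the variant H2az1, from RefSeq on GRCm38.p6, all on the plus strand: H1f2 chr13:23738657-23738806, H2bc3 chr13:23746584-23746733, H2ac4 chr13:23750938-23751087, H1f1 chr13:23763518-23763667, H2bc14 chr13:21721894-21722043 and H2az1 chr3:137864337-137864486. Capitals mark the octamer ATTTGCAT, which Oct factors bind, the TATA box TATAAA, the CCAAT box CCAAT and the RUNX letters, which are TGTGGT or else TGTGGC or else TGCGGT or else TGCGGC, each on either strand and with any overlap allowed.
H1f2: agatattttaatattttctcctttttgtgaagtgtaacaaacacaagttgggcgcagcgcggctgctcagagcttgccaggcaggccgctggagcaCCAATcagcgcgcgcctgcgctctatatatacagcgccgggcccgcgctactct
H2bc3: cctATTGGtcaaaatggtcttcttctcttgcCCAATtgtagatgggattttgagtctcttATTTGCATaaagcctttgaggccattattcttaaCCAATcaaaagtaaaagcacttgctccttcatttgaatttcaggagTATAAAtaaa
H2ac4: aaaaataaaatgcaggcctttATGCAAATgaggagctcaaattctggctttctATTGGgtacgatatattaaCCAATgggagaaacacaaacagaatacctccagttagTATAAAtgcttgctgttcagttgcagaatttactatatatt
H1f1: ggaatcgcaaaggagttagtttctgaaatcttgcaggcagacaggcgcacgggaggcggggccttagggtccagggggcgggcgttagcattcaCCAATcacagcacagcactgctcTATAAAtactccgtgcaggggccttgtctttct
H2bc14: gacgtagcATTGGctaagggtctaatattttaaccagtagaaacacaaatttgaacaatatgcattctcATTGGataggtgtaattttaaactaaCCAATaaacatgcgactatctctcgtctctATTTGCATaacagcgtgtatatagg
H2az1: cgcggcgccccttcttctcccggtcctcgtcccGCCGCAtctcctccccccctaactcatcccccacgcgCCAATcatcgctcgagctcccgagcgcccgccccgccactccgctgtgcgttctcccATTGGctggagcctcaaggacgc

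Of these letters, the printed stretch of H1f2 held a CCAAT box alone, while H2bc3 and H2ac4 held the octamer, TATAAA and CCAAT. H1f1 held TATAAA and CCAAT without the octamer, H2bc14 the octamer and CCAAT without TATAAA, and H2az1 CCAAT and RUNX letters. Over 250 bases before the start, read for the 40 of 47 members in the RefSeq table, the octamer lay before 9 of 13 clustered H2A and H2B genes (69.2%), before 0 of 12 clustered H1, H3 and H4 genes and before 0 of 15 variants, against 1.6% of 32851 promoters. TATAAA lay before 15 of 25 clustered genes (60%) and 1 of 15 variants (6.67%), against 12.4% of all, and CCAAT before 21 (84%) and 9 (60%), against 33.8%. RUNX letters lay before 10 of 25 clustered genes (40%) and 4 of 15 variants (26.7%), against 38% of all promoters. A match describes the letters and not a bound site, and its absence says only that these letters are not in the window.

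Many histone genes share probe sets and fall outside the rule, and these were read apart. The 10 probe sets listing 12 H3 genes averaged 12.22, 12.11 and 11.86 in WT and 12.41, 11.59 and 12.53 in KO, with differences of 0.07 to 0.14. Those of H4, 5 probe sets over 11 genes, differed by 0.22 to 0.25, the 7 of H2B by -0.01 to 0.06 and the 2 of H2A by 0.06 to 0.08. Values repeat among them, with 4 distinct rows for H4 and 6 for H2B. KO2 lay below the mean of the other 5 arrays in each kind, by -0.79 for H2B, -0.63 for H3, -0.44 for H2A and -0.40 for H4. Among smaller sets, H4c17 with H4c11 differed by -0.24, H2bc6 with H1f4 by 0.21 and H2aw with Trim17 by 0.20. Their KO2 values on the same measure were -0.64, -0.21 and -0.14. The replacement histone H3.3 followed less: the 4 probe sets listing H3f3a with a copy were at -0.12 on this measure and the 2 of H3f3b at -0.13, with genotype differences of 0.11 to 0.17 and 0.04 to 0.18. In a limma fit of the 8825 probe sets without a single symbol, 4 were called, and none of the adjusted p of these shared histone probe sets was under 0.698.

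The genes that make and process histone mRNA were tested from a list of 18, and 0 had an adjusted p under 0.05 (limma). At an unadjusted p under 0.05, 3 of 18 were higher in KO and 0 lower, beside 6.96% of all genes higher and 7.14% lower. Npat, the cyclin E-Cdk2 target that activates the clustered genes, read 7.19, 7.06 and 7.21 in WT and 7.53, 7.44 and 7.64 in KO. Its groups did not overlap, as was so for 22.4% of all genes, and the difference was 0.38 (SE 0.13, limma adjusted p = 0.282). Hinfp, which activates H4 genes, had a difference of 0.43 (adjusted p = 0.313, limma) and Srrt, encoding ARS2 of the cap-binding pathway, of 0.42 (adjusted p = 0.317, limma). The groups of Hinfp and of Srrt did not overlap either. KO2 was not low for Npat, while Slbp, which binds the stem-loop, read 9.09, 9.42 and 8.53 against 9.37, 7.77 and 9.13. Lsm11, of the U7 particle that cuts the mRNA end, was at -0.22 (adjusted p = 0.535, limma) and -0.11 without KO2.

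The chaperones gave no call either. Of 14 replication-coupled chaperones 0 had an adjusted p under 0.05 by limma (0.629% of all genes) and 1, Cdan1, an unadjusted one (14.1% of all genes). The list median was -0.13 and turned to 0.33 without KO2, with 11 of 14 then above 0. KO2 was below the mean of the other arrays for 13 of 14. It was below the mean of KO1 and KO3 for all but Ipo4, so this turn also reflects the array left out. Chaf1b, a subunit of the CAF-1 complex that lays H3-H4 behind the fork, read 7.68, 7.91 and 7.30 against 7.81, 5.91 and 7.24, and Dnajc9, an H3-H4 co-chaperone, 9.81, 9.76 and 9.64 against 9.47, 8.40 and 9.40. Both were lowest on KO2, and each differed by -0.64, which became -0.10 for Chaf1b and -0.30 for Dnajc9 without it. For Dnajc9, though not for Chaf1b, every KO-labelled array was below every WT array. Groups did not overlap for 22.4% of all genes. Of 13 tested genes for variant deposition 0 were called at either limit, against the same 0.629% and 14.1% of all genes. Srcap, the motor that exchanges H2A.Z, was at 0.49 (SE 0.21) and Znhit1 of the same complex at -0.54 (SE 0.25), with Atrx of the H3.3 pathway at 0.43 (SE 0.26) and Cabin1 at 0.33 (SE 0.20). Leaving out single arrays moved Znhit1 between -0.74 and -0.30, the latter without KO2, Srcap between 0.33 and 0.65, Atrx between 0.13 and 0.60 and Cabin1 between 0.19 and 0.47. Of 4 general chaperones 0 were called at either limit (0.629% and 14.1% of all genes), with differences from -0.26 for Spty2d1, which was -0.06 without KO2, to 0.22 for Nap1l4. Cenpa, the centromeric H3 variant and outside the symbol rule, read 9.07, 8.83 and 8.69 against 9.16, 7.67 and 9.39, a difference of -0.12 that became 0.41 without KO2.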

How the data were processed

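RNA of 3 WT and 3 Runx3-/- cultures was hybridised to Affymetrix mouse gene ST 1.0 arrays. The deposited values are log2 expression that the authors computed by RMA with GC correction in Partek Genomics Suite, version not given in the sources used here. Background-corrected probe data were not analysed here, and the number of arrays limits the precision.

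Of 35399 probe sets, 21789 carried 1 symbol in the platform annotation, 1621 several and 11989 none. Symbols were compared with the RefSeq table of GRCm38, which changed 0 and lacked 91 of the identifiers. Per gene, the probe set with the highest mean was kept, and a gene was tested where its highest value reached the table median of 4.26 (10021 of 19938 genes). KO was compared with WT by limma 3.58.1 (lmFit and eBayes, two-sided, Benjamini-Hochberg over all tested genes) in R 4.3.3, after tests on simulated data. Figures used matplotlib 3.10.9. The limma p-values set a difference against the spread between these cultures, moderated by that of all tested genes.

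The text names the tested variants, per clustered family the 2 genes with the highest mean, the 3 clustered genes with the smallest p, the lowest and highest difference, up to 4 genes with the smallest p of each pathway list, Runx3 and Cenpa. Others, such as H2bc21, Slbp, H1f3, H2bc18, the dim members, Xist, Cd74, H2-Eb1 and the named markers of other cell types, were chosen after their values were seen. The members and lists were chosen with earlier results of these data known. RefSeq promoters were matched by symbol for 40 of 47 members, the exceptions being H4c14, Macroh2a3, H2ax, H3c7, H2bu1-ps, H2bc4 and H2bc21. Alternatives were another filter, other normalizations, array weights, an unmoderated model, the replicate number as a block and leaving out arrays.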

Additional observations from a re-analysis of the deposited data

How the results depend on the processing

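No clustered and no variant histone gene was called under any of 16 alternatives. The count of clustered genes past 1.5-fold at an unadjusted p under 0.05 was 1. It became 0 without the filter, with quantile or median normalization, with the replicate number as a block and in the unmoderated model. It was 2 with array weights and ran from 0 to 1 over single arrays left out. With WT2 and KO2 both left out, an alternative chosen after seeing the data, it was 7. Except without KO2, the share of all genes past both limits was not taken for these alternatives. The counts of 2 and 7 are therefore no result about histone genes. The count over all genes with an adjusted p under 0.05 was 63. It was 36 without the filter, 26 with the filter on all 6 arrays, 1 with the replicate block, 0 in the unmoderated model and 547 with array weights. Over single arrays left out it ran from 9 to 67 (WT1 17, WT2 26, WT3 16, KO2 28 and KO3 9). The clustered median, 0.10, ran from -0.02 without KO3 to 0.37 without KO2 over single arrays left out, and was 0.41 without WT2 and KO2. The variants' median was 0.44 without WT2 and KO2. Same-numbered arrays deviated with correlations of -0.131, -0.369 and -0.133, so the numbers were not taken as pairs. Of 36 named genes, 19 changed sign somewhere, with no change of call: quantile normalization gave H3c4 -0.10 and H4c4 0.01, and median normalization H2ax -0.07, H3c4 -0.05, Nap1l1 -0.03 and Npm1 -0.05. Array weights gave H2az1 0.26, H1f5 0.43, H1f1 0.61, H2bc14 0.35, H2bc3 0.32, H4c4 0.15, Npm1 -0.06 and Cenpa 0.23. Without WT2 and KO2 H2az1 was 0.44, H1f5 0.68, H1f1 0.76, H2bc14 0.58, H2bc3 0.58, H4c4 0.38, Chaf1b 0.03, Spty2d1 0.00 and Cenpa 0.39. Over single arrays left out the ranges were -0.04 to 0.56 for H2az2, -0.17 to 0.00 for Macroh2a1, -0.22 to 0.36 for H2az1, -0.29 to 0.58 for H2ax, -0.28 to 0.54 for H1f5, -0.52 to 0.64 for H1f1, -0.02 to 0.36 for H2ac15, -0.39 to 0.87 for H2ac4, -0.57 to 0.49 for H2bc14, -0.40 to 0.50 for H2bc3, -0.10 to 0.17 for H3c4, -0.21 to 0.27 for H4c4, 0.00 to 0.71 for H4c6, -0.44 to 0.03 for Ipo4, -0.06 to 0.14 for Nap1l1, -0.03 to 0.12 for Npm1 and -0.45 to 0.41 for Cenpa. The causes were not tested. The highest of these values for H1f1, H1f5, H2ac4, H2ac15, H2bc3, H2bc14, H4c4, H2az1, H2az2 and H2ax came from leaving out KO2. Signal near the table median limits H1f3, H3c4, H3c15 and H2bc21.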
